A study of Homo sapiens with 18 samples.

Results

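The enzymes that carry farnesyl diphosphate through squalene to lanosterol, and then remove the methyl group at C14 of lanosterol, were followed through 6 genes: FDFT1, SQLE, LSS, CYP51A1, TM7SF2 and LBR. They were chosen by their place in the pathway, at a point when earlier results of these data were known. All 6 were found among the 26249 genes of the expression table. All 6 were also among the 11477 that were tested, those whose mean over the libraries reached 1 FPKM (fragments normalised to transcript length). In these values the libraries are level on spike-in RNA and not on their total, and summed FPKM ran from 263339 to 764363. Polyadenylated RNA had been sequenced from PATU-8902 and PATU-8988T, established cell lines from human pancreatic ductal adenocarcinoma (PDAC). Cells of each line were given 2.5 µM DCLK1-IN-1, which inhibits the kinase DCLK1, over 6 h or 24 h, or only the solvent DMSO over 24 h. Each of these 6 groups held 3 libraries, which the series record calls biological triplicates. The labels give no genetic change in any group, and all groups shared the same medium with serum. The only DMSO group of each line was taken at 24 h, so in the 6 h comparisons inhibitor and time of harvest cannot be told apart. The 6 h and 24 h groups of a line were compared with the same 3 DMSO libraries.

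Sterol synthesis starts from acetyl-CoA, runs through mevalonate to farnesyl diphosphate, and becomes committed to sterols when squalene synthase (FDFT1) joins farnesyl units into squalene. Squalene epoxidase (SQLE) adds oxygen to squalene in a rate-limiting step, and lanosterol synthase (LSS) folds the epoxide into lanosterol, the first sterol. CYP51A1, a cytochrome P450, then removes the C14 methyl group, and the double bond this leaves is reduced by either of a pair of C14 reductases, TM7SF2 in the endoplasmic reticulum or LBR in the inner nuclear membrane. LBR, the lamin B receptor, also tethers heterochromatin and the nuclear lamina to the envelope. Genes of the pathway are textbook targets of SREBP-2 (encoded by SREBF2), a transcription factor that is released from its membrane when sterols in the endoplasmic reticulum are low.

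The library medians over the 11477 tested genes ran from 6.12 to 17.4 FPKM, and the depth is unknown because the table gives no counts. PATU-8988T DMSO replicate 1 had a median of 6.12 FPKM, against 12.1 and 10.2 FPKM in replicates 2 and 3. In the comparisons that include this library, calls of the 6 genes that changed without it are given both ways. Comparisons inside PATU-8902 were not refitted without it, though it enters their pooled spread. Changes are therefore given on 2 scales: as deposited (level on spike-in RNA), and "centred", in which each library was shifted to a common median on the log2 scale. The relative level used for single libraries is FPKM divided by the library's own median. The epithelial keratins KRT8 and KRT18 were at 168 FPKM or more in every library, while KRT19, CDH1 and KRT7 were at 80.5 FPKM or more in PATU-8902 and at 0.228 FPKM or less, near the table's floor, in PATU-8988T. VIM, a mesenchymal filament gene, ran from 4.46 to 7.19 FPKM in PATU-8902 and from 131 to 271 FPKM in PATU-8988T.

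The upstream sequence is shown for 3 genes that rose on the centred scale in PATU-8902 at 24 h (LSS, CYP51A1 and TM7SF2) and for LBR, which did not pass. Each sequence holds 250 bases before and 50 bases after the gene's start in RefSeq on build GRCh38.p14, 5′ to 3′ on the strand of the gene. RefSeq entries were used for these 4 of the 6 genes. FDFT1 and SQLE, which also rose, are not shown, and the motif matches do not cover them. Capitals mark every match on either strand to 4 motifs: TCACNCCAC (a consensus of the sterol regulatory element), CCAAT (the NF-Y box), GGGCGG (the Sp1 box) and CACGTG (the E-box). LSS is shown from chr21:46228725-46229024, minus strand, CYP51A1 from chr7:92134428-92134727, minus strand, TM7SF2 from chr11:65111622-65111921, plus strand, and LBR from chr1:225428772-225429071, minus strand.
LSS: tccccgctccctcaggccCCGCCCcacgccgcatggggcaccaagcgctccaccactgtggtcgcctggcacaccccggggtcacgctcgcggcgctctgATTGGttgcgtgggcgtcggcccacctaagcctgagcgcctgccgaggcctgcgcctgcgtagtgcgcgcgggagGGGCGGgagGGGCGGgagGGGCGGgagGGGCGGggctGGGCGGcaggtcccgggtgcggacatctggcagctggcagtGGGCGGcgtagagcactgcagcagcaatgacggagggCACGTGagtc
CYP51A1: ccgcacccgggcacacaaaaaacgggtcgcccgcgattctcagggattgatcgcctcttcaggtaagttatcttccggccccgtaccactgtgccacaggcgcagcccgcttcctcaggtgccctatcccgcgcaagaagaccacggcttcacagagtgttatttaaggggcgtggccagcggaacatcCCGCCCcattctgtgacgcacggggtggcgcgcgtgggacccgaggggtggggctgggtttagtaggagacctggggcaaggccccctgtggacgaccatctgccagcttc
TM7SF2: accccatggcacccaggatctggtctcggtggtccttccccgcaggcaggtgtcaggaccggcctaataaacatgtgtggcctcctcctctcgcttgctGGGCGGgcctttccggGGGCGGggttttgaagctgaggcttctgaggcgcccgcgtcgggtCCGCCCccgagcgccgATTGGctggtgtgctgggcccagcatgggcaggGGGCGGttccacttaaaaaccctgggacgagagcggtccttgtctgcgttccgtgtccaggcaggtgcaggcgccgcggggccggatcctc
LBR: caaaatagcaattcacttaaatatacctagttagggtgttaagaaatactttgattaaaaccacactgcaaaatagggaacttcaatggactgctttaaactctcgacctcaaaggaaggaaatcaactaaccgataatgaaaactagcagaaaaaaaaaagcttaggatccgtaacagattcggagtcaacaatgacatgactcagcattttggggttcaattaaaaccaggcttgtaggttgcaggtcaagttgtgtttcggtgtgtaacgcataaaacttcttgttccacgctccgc

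LSS had 7 matches to GGGCGG, 5 of them on the gene's own strand between bases -75 and -33 (the first base of the gene is 1 and the base before it -1). It also had 1 CCAAT match at -150 to -146 on the opposite strand and 1 CACGTG match at 41 to 46. TM7SF2 had 4 GGGCGG matches and 1 CCAAT match, with the CCAAT match at -74 to -70 on the opposite strand. CYP51A1 had 1 GGGCGG match at -61 to -56 on the opposite strand. LBR had no match to any of the 4 motifs. TCACNCCAC was in none of the 4 windows, which says only that these letters are absent there. Over the 35116 promoters of the same length, TCACNCCAC was held by 1.13%, CCAAT by 34.6%, GGGCGG by 45% and CACGTG by 7.26%. G and C made up 74.7% of the LSS window, 67.7% of TM7SF2, 63.7% of CYP51A1 and 38.3% of LBR, against a median of 58.7% over all promoters.

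In PATU-8902 cells, 24 h of inhibitor was accompanied by higher levels of FDFT1, SQLE, LSS, CYP51A1 and TM7SF2, while LBR stayed within the range of its DMSO libraries or close to it. SQLE reached a mean relative level 2.85-fold that of DMSO, CYP51A1 2.48-fold, LSS 2.39-fold, FDFT1 2.19-fold and TM7SF2 2.15-fold, and LBR was at 0.983-fold. On the centred scale 5 of the 6 genes passed (limma, adjusted p below 0.05), all higher, where 0.418% of the 11477 genes passed as higher and 0.444% in either direction. On the deposited scale 2 of the 6 passed, SQLE and CYP51A1, where 0.105% of all genes passed as higher and 0.113% in either direction. Neither deposited call held when any 1 of the 6 libraries was left out, where 0 members passed, or when the fit held only the 2 groups compared, where 0 passed. Bulk libraries cannot tell a change in every cell from a change in some of the cells, nor fewer cells of a kind from less RNA per cell.

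**Figure D1:**
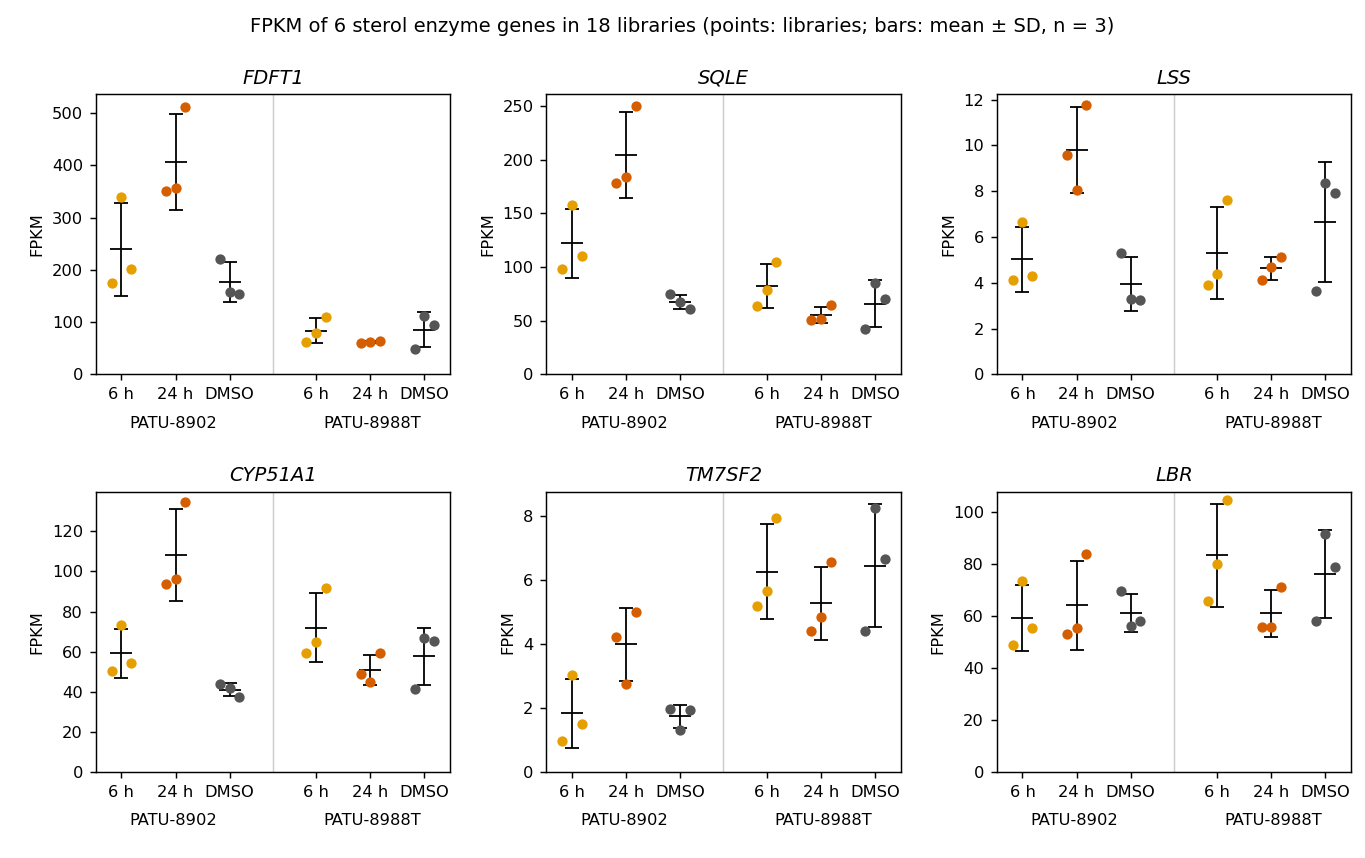
FPKM of the 6 genes in each of the 18 libraries (linear axis from 0), by line and group, with bars for the mean ± SD of 3 libraries. In PATU-8902 the 24 h libraries lay above the DMSO libraries for 5 genes, and the spread inside PATU-8988T DMSO reached from 47.8 to 113 FPKM for FDFT1.

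Squalene synthase, FDFT1, was the most abundant of the 6 per transcript length in PATU-8902. Its FPKM was 176, 340 and 202 in the PATU-8902 6 h libraries (replicates 1 to 3), 351, 356 and 512 in the 24 h libraries, and 220, 157 and 153 in the DMSO libraries. All 3 of the 24 h libraries were above all 3 of DMSO, which held for 5 of the 6 genes and for 5.84% of all genes, and the 6 h libraries overlapped with DMSO. Relative to the library median the values were 16.4, 20.3 and 16.8 at 6 h, 27.5, 28.9 and 29.5 at 24 h, and 14.7, 12.3 and 12.2 in DMSO, and there the 3 groups did not overlap. On this scale 5 of the 6 genes had all 24 h libraries above DMSO, which held for 6.85% of all genes. The centred log2 fold change at 24 h was 1.13 ± 0.11 (SE; adjusted p = 1.63e-05), and the deposited one was 1.19 ± 0.32 (adjusted p = 0.594).

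Squalene epoxidase, SQLE, had the smallest SE of the 6 on the centred scale. Its level was 9.14, 9.44 and 9.19 times the library median in the PATU-8902 6 h libraries, 14, 14.9 and 14.4 times at 24 h, and 4.99, 5.28 and 4.90 times in DMSO. The 3 groups formed separate steps, with every 24 h library above every 6 h library and every 6 h library above every DMSO library. Having all 24 h libraries above all 6 h libraries on this scale held for 7.72% of all genes. In FPKM it averaged 122 ± 31.8 at 6 h, 204 ± 40.0 at 24 h and 67.7 ± 6.59 in DMSO (SD, n = 3 each). Its 24 h change was 1.50 ± 0.05 centred (adjusted p = 9.38e-11) and 1.57 ± 0.28 deposited (adjusted p = 0.0232). By centred log2 fold change it stood 32nd from the top of the 11477 genes.

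Lanosterol synthase, LSS, was less abundant per transcript length than SQLE. Its FPKM was 4.13, 6.67 and 4.29 at 6 h, 9.58, 8.05 and 11.8 at 24 h, and 5.32, 3.28 and 3.24 in DMSO. The 24 h libraries were again all above DMSO, and the 6 h libraries were not, since DMSO replicate 1 lay among them. The 24 h change was 1.08 ± 0.11 centred (adjusted p = 1.98e-05) and 1.14 ± 0.27 deposited (adjusted p = 0.299).

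CYP51A1, the C14 demethylase, had the change next in size to SQLE at 24 h. Its level was 4.69, 4.37 and 4.55 times the library median at 6 h, 7.36, 7.81 and 7.75 times at 24 h, and 2.95, 3.28 and 3.0 times in DMSO, and no library crossed into another group. In FPKM it averaged 59.3 ± 12.2 at 6 h, 108 ± 22.9 at 24 h and 41.2 ± 3.30 in DMSO (SD, n = 3 each). The 24 h change was 1.29 ± 0.07 centred (adjusted p = 2.52e-08) and 1.36 ± 0.25 deposited (adjusted p = 0.0312). The antisense gene CYP51A1-AS1 overlaps it, and no source used here says if reads were counted by strand. The CYP51A1-AS1 row stayed between 0.0784 and 0.200 FPKM in the 18 libraries, near the floor of the table. CYP51A1 also has processed pseudogenes, to which a share of its reads could have been assigned.

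Of the C14 reductases, TM7SF2 passed as higher on the centred scale and LBR did not pass. TM7SF2 was at 0.963, 3.04 and 1.50 FPKM in the PATU-8902 6 h libraries, 4.22, 2.74 and 5.00 FPKM at 24 h, and 1.96, 1.33 and 1.94 FPKM in DMSO. The 24 h libraries were all above DMSO, and 1 of the 6 h libraries lay above the lowest 24 h library. Its 24 h change was 0.78 ± 0.13 centred (adjusted p = 0.00568) and 0.84 ± 0.26 deposited (adjusted p = 1.00 to 2 decimals). At such low FPKM the added pseudocount of 1 holds a fold change down, and with a pseudocount of 0.1 the centred value was 1.06 ± 0.19 (adjusted p = 0.0170). The centred call of TM7SF2 did not hold in the fit of the compared groups alone (adjusted p = 0.174). The start of TM7SF2 overlaps the end of VPS51, a subunit gene of a vesicle tethering complex, whose relative level averaged 1.21 ± 0.198 at 24 h and 1.53 ± 0.334 in DMSO (SD, n = 3 each).

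LBR was at 4.57, 4.38 and 4.61 times the library median in the PATU-8902 6 h libraries, 4.17, 4.48 and 4.81 times at 24 h, and 4.66, 4.39 and 4.64 times in DMSO. All 3 groups overlapped. Its centred 24 h change was -0.023 ± 0.07 (adjusted p = 0.934), with a 95% confidence interval from -0.17 to 0.12, which leaves out changes of the size seen in the other 5 genes. The deposited change was 0.040 ± 0.26 (adjusted p = 1.00 to 2 decimals).

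**Figure D2:**
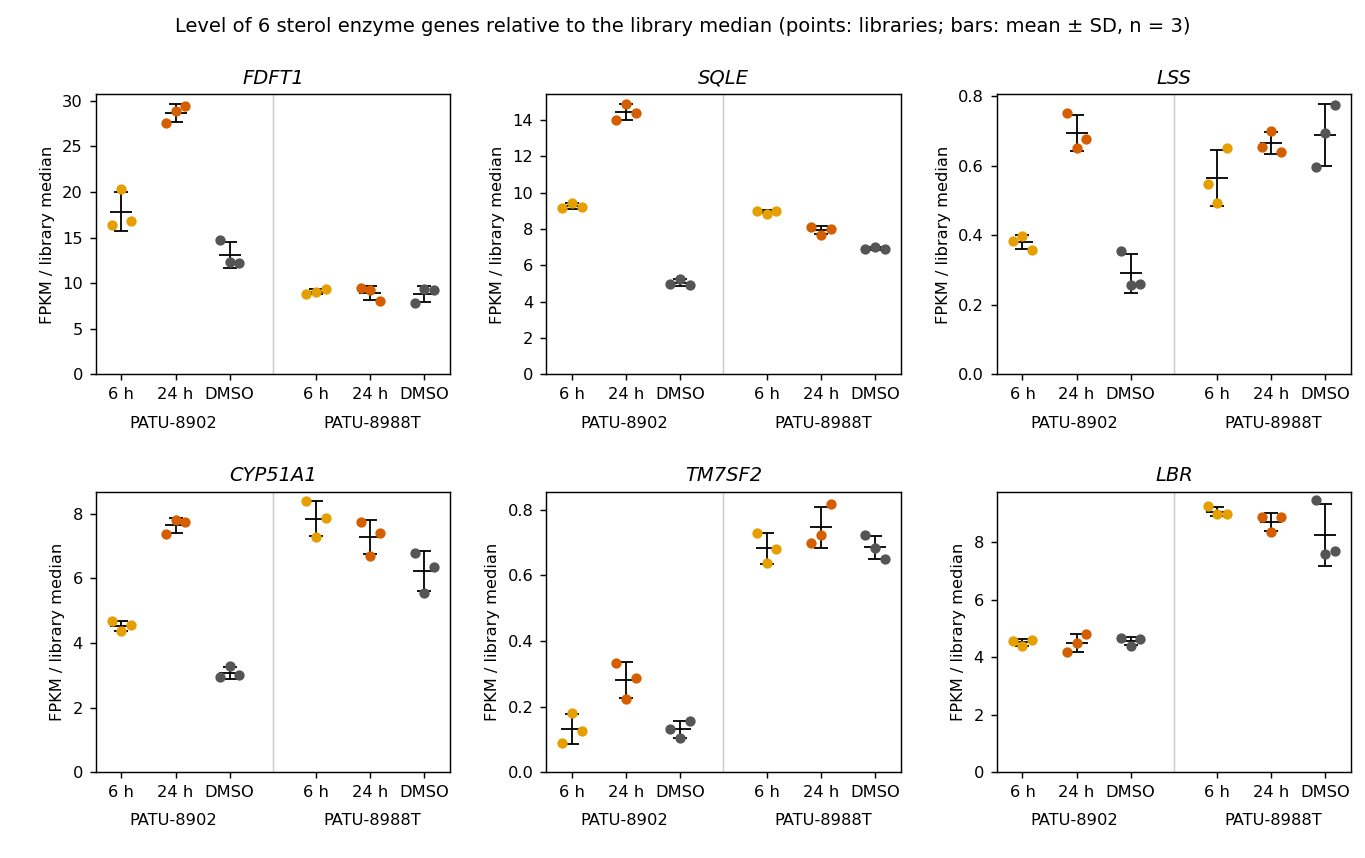
FPKM divided by the library median for the 6 genes in the 18 libraries (linear axis from 0), with bars for the mean ± SD of 3 libraries. SQLE formed 3 separate steps in PATU-8902, at 9.14 to 9.44 at 6 h, 14 to 14.9 at 24 h and 4.90 to 5.28 in DMSO, while LBR lay between 4.17 and 4.81 in all 9 libraries of that line.

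Set directly against each other, TM7SF2 amounted to 0.0415 or less of the LBR level in the PATU-8902 6 h libraries, 0.0496 to 0.0795 at 24 h, and 0.0238 to 0.0334 in DMSO. These are ratios of FPKM within a library, so they do not depend on how libraries were scaled. The 3 ratios at 24 h were all above those in DMSO and at 6 h. In PATU-8988T the same ratio was 0.0710 to 0.0789 at 6 h, 0.0789 to 0.0919 at 24 h, and 0.0762 to 0.0902 in DMSO, and the groups overlapped. The overlap of 6 h with DMSO rested on DMSO replicate 1 (0.0762), with replicates 2 and 3 at 0.0902 and 0.0843. LBR was thus the more abundant of the C14 reductase transcripts in every library of both lines. The ratio of SQLE to LSS was 23.7 to 25.7 at 6 h, 18.6 to 22.9 at 24 h and 14 to 20.5 in DMSO of PATU-8902, and 13.8 to 17.9 at 6 h, 11.0 to 12.6 at 24 h and 8.90 to 11.5 in DMSO of PATU-8988T. In both lines all 3 ratios at 6 h were above all 3 in DMSO, and at 24 h the ratios overlapped with DMSO. In PATU-8988T this 24 h overlap rested on DMSO replicate 1 (11.5), with replicates 2 and 3 at 10.1 and 8.90. No test was made on these ratios. Adding 1 to each FPKM before dividing kept this order of group means, but it moved 10 of the means by their SD or more and 2 by less. For TM7SF2 to LBR in PATU-8902 DMSO the mean went from 0.0285 to 0.0442.

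**Figure D3:**
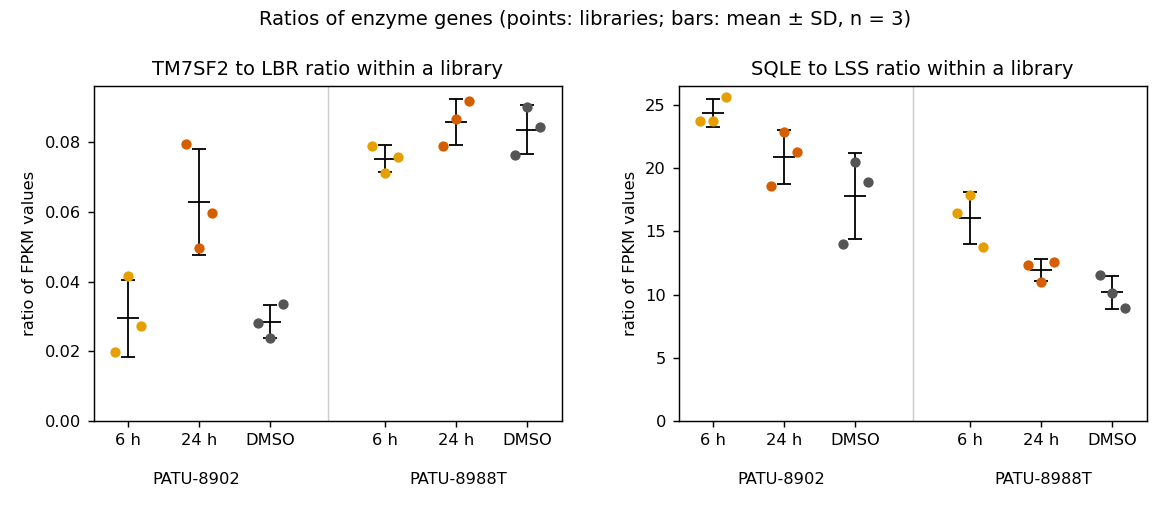
Ratio of FPKM values within each library, for TM7SF2 to LBR (left) and SQLE to LSS (right), with bars for the mean ± SD of 3 libraries. TM7SF2 reached 0.0496 to 0.0795 of LBR at 24 h in PATU-8902, against 0.0238 to 0.0334 in DMSO, and SQLE to LSS was highest at 6 h in both lines.

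At 6 h in PATU-8902 the change was smaller and fewer genes passed. On the centred scale SQLE rose by 0.86 ± 0.05 (adjusted p = 1.42e-07) and CYP51A1 by 0.54 ± 0.07 (adjusted p = 0.00175), so that 2 of 6 passed where 0.105% of all genes passed as higher and 0.113% in either direction. Both calls held in the 6 fits that left out 1 library each. FDFT1 was at 0.44 ± 0.11 (adjusted p = 0.368) and LSS at 0.33 ± 0.11 (adjusted p = 1.00 to 2 decimals). TM7SF2 was at 0.034 ± 0.13 and LBR at -0.018 ± 0.07, with 95% confidence intervals from -0.24 to 0.31 and from -0.16 to 0.13. Relative to the library median 4 genes (FDFT1, SQLE, LSS and CYP51A1) had all 3 of the 6 h libraries above all 3 of DMSO, which held for 4.19% of all genes. As deposited 0 of the 6 passed, and limma called 1 of 11477 genes (0.00871%), with 79 at an unadjusted p below 0.05. Time of harvest differed between these groups, as stated above.

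Within the inhibitor-treated PATU-8902 libraries, the 5 genes were all higher at 24 h than at 6 h on the centred scale, by 0.69 ± 0.11 for FDFT1, 0.64 ± 0.05 for SQLE, 0.75 ± 0.11 for LSS, 0.75 ± 0.07 for CYP51A1 and 0.75 ± 0.13 for TM7SF2. All 5 passed, where 0.209% of all genes passed as higher and 0.244% in either direction. LBR was at -0.0048 ± 0.07 (95% confidence interval -0.15 to 0.14). With 1 library removed at a time, SQLE, LSS and CYP51A1 held in all 6 fits, while FDFT1 held in 3 of 6 and TM7SF2 in 2 of 6. In the fit of the compared groups alone 3 of the 6 genes passed, where limma called 17 of 11477 genes. As deposited, limma called 0 genes, with 197 at an unadjusted p below 0.05. The plot of fold changes shows the comparisons with DMSO and not those between 24 h and 6 h.

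**Figure D4:**
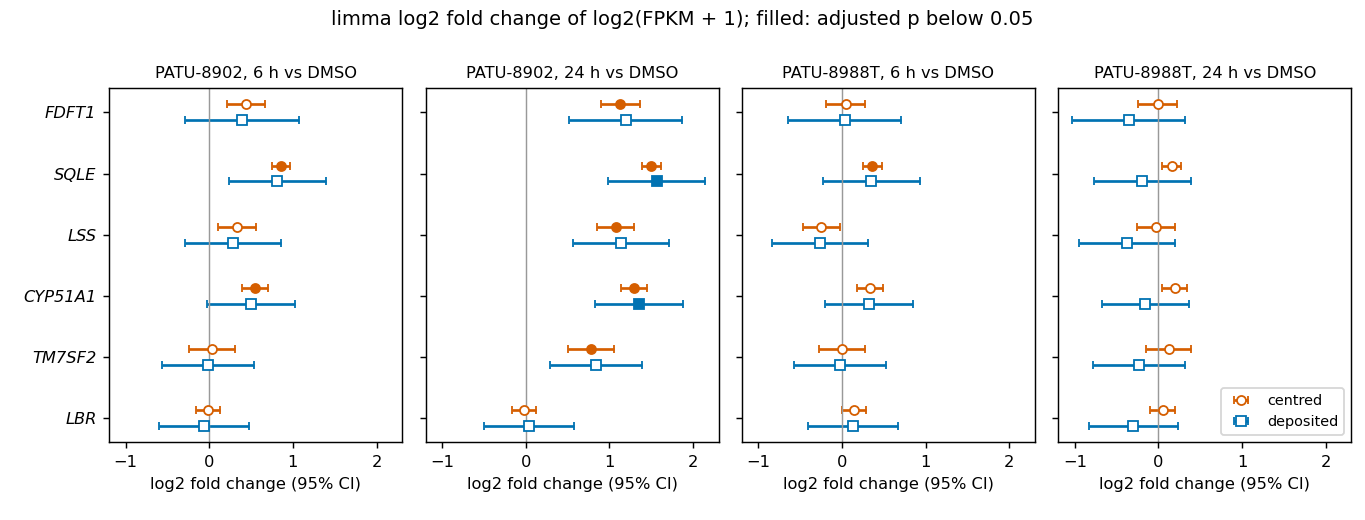
limma log2 fold change of log2(FPKM + 1) for the 6 genes in the 4 comparisons with DMSO, on the centred scale (circles) and the deposited scale (squares), with 95% confidence intervals. Filled symbols passed at an adjusted p below 0.05. At 24 h in PATU-8902 5 centred circles are filled, and the intervals are wider on the deposited scale.

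In PATU-8988T 1 of the 6 genes passed at 6 h and 0 at 24 h. At 6 h SQLE was at 9.01, 8.84 and 8.99 times the library median, against 6.89, 7.04 and 6.90 times in DMSO, and it was the only one of the 6 to pass on the centred scale (0.36 ± 0.05, adjusted p = 0.00873), where 0.0523% of all genes passed as higher and 0.0784% in either direction. All 3 SQLE values at 6 h were above DMSO. The call held in 4 of the 6 fits that left out 1 library, and it was lost with the replicate number as a block (adjusted p = 0.0507) and in the fit of the compared groups alone (adjusted p = 0.329). CYP51A1 was at 8.39, 7.30 and 7.87 times the median at 6 h, against 6.78, 5.54 and 6.37 times in DMSO, also without overlap, and its change of 0.33 ± 0.07 did not pass (adjusted p = 0.0788). Having all 3 libraries at 6 h above DMSO held for 9.80% of all genes on this scale. The centred changes of the other genes were 0.045 ± 0.11 for FDFT1, -0.25 ± 0.11 for LSS, -0.0050 ± 0.13 for TM7SF2 and 0.14 ± 0.07 for LBR. Without DMSO replicate 1, 4 genes passed on the centred scale, with SQLE at 0.33, CYP51A1 at 0.37 and LBR at 0.22 higher and LSS at -0.32 lower. In that fit 4884 of all 11477 genes passed (42.6%), against 9 with all libraries. In the deposited values limma called 0 genes, with 287 at an unadjusted p below 0.05.

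At 24 h in PATU-8988T limma called 0 of 11477 genes on either scale, with 687 on the deposited and 1923 on the centred scale at an unadjusted p below 0.05. These counts rested on DMSO replicate 1: without it limma called 6514 genes on the deposited scale (56.8%), 6508 of them lower, and 4680 on the centred scale (40.8%). SQLE was at 8.11, 7.69 and 8.03 times the library median at 24 h, against 6.89, 7.04 and 6.90 times in DMSO. It was the only one of the 6 whose 24 h libraries all lay above DMSO on the relative scale, which held for 4.11% of all genes, and its centred change was 0.16 ± 0.05 (adjusted p = 0.295). CYP51A1 was at 0.19 ± 0.07 (adjusted p = 0.295). FDFT1 was at 59.7, 62.3 and 64.9 FPKM at 24 h, against 47.8, 113 and 94.9 FPKM in DMSO, a centred change of -0.0087 ± 0.11 with a 95% confidence interval from -0.24 to 0.22. LSS was at -0.027 ± 0.11, TM7SF2 at 0.12 ± 0.13 and LBR at 0.050 ± 0.07 on the centred scale. The deposited log2 changes of the 6 genes lay between -0.38 and -0.16, and the median over all 11477 genes was -0.35. Without DMSO replicate 1, FDFT1 (-0.72) and LSS (-0.70) passed as lower on the deposited scale, and CYP51A1 (0.23) passed as higher on the centred scale. These 2 of 6 and 1 of 6 were smaller shares than those over all genes in the same fits, and the deposited median over all genes was then -0.60. Between 24 h and 6 h in this line limma called 0 genes on either scale, with 665 deposited and 544 centred at an unadjusted p below 0.05. The centred changes of the 6 genes in that comparison lay between -0.20 for SQLE and 0.22 for LSS.

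The difference between the lines was tested directly as the 24 h change in PATU-8902 minus that in PATU-8988T. On the centred scale the change in PATU-8902 was larger by 1.35 ± 0.07 for SQLE (adjusted p = 9.28e-08), 1.14 ± 0.15 for FDFT1 (adjusted p = 0.00162), 1.10 ± 0.15 for LSS (adjusted p = 0.00162) and 1.10 ± 0.10 for CYP51A1 (adjusted p = 4.11e-05). These 4 of 6 passed where 0.218% of all genes passed as higher and 0.227% in either direction, and each held in all 12 fits that left out 1 library. In the fit without PATU-8988T DMSO replicate 1, 5.54% of all genes passed. TM7SF2 differed by 0.66 ± 0.18 (adjusted p = 0.535) and LBR by -0.072 ± 0.10 (95% confidence interval -0.28 to 0.13). On the deposited scale 0 of the 6 passed and limma called 1 of 11477 genes (0.00871%), with 281 at an unadjusted p below 0.05. The deposited differences ran from 0.34 for LBR to 1.76 for SQLE against a median of 0.39 over all genes, and 3 genes (SQLE, LSS and CYP51A1) passed without PATU-8988T DMSO replicate 1. In that fit limma called 14 of 11477 genes (0.122%), with 5492 at an unadjusted p below 0.05 and a median of 0.65 over all genes. For the 6 h change limma called 0 genes on either scale, with 99 deposited and 1385 centred at an unadjusted p below 0.05. SQLE had a centred 6 h difference of 0.50 ± 0.07 (adjusted p = 0.0695), and without PATU-8988T DMSO replicate 1 it passed together with FDFT1 and LSS, where 2308 of 11477 genes passed (20.1%).

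The lines also differed before any inhibitor, and the order of the 6 genes was not the same in both. Among DMSO libraries FDFT1 averaged 177 ± 37.4 FPKM in PATU-8902 and 85.1 ± 33.5 FPKM in PATU-8988T, while TM7SF2 averaged 1.74 ± 0.357 FPKM in PATU-8902 and 6.43 ± 1.92 FPKM in PATU-8988T (SD, n = 3 each). For both genes the FPKM values of the lines did not overlap, where 46.5% of all genes were higher in PATU-8902 and 10.8% lower without overlap. On the deposited scale FDFT1 was higher in PATU-8902 by 1.11 ± 0.32 (adjusted p = 0.00721) and TM7SF2 lower by a log2 change of -1.41 ± 0.26 (adjusted p = 0.000165), and the other 4 did not pass, where 54.2% of all genes passed in either direction, 41.8% higher and 12.4% lower. On the centred scale all 6 passed, FDFT1 as higher (0.61) and LBR (-0.79), CYP51A1 (-0.95), LSS (-1.09), SQLE (-0.41) and TM7SF2 (-1.91) as lower, where 72.2% of all genes passed, 34.4% higher and 37.8% lower. SQLE was at 0.092 ± 0.28 on the deposited scale, so its sign depended on the scaling, and the median deposited difference over all genes was 0.45. With most genes past the threshold, the share of the 6 that passed was no larger than the background on the deposited scale. Without PATU-8988T DMSO replicate 1, CYP51A1 (-0.67) and LSS (-0.91) also passed as lower on that scale, and FDFT1 was at 0.75 (adjusted p = 0.0412) and TM7SF2 at -1.62. SQLE was then at -0.20. In that fit 51.6% of all genes passed, 3762 higher and 2157 lower, with a median of 0.19. Without PATU-8902 DMSO replicate 1, LSS also passed (-0.78), where 5304 of 11477 genes passed.

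By mean FPKM over the 9 libraries of a line, FDFT1 stood 334th of the 11477 genes in PATU-8902, followed by SQLE at 812th, CYP51A1 at 1638th, LBR at 1870th, LSS at 7931st and TM7SF2 at 9861st. In PATU-8988T the order was FDFT1 at 883rd, LBR at 935th, SQLE at 1034th, CYP51A1 at 1161st, TM7SF2 at 6892nd and LSS at 7118th. These ranks pool treated and DMSO libraries. Among the PATU-8902 DMSO libraries alone LBR (61.2 ± 7.34 FPKM) was above CYP51A1 (41.2 ± 3.30 FPKM) without overlap, and among those of PATU-8988T LSS (6.66 ± 2.61 FPKM) and TM7SF2 (6.43 ± 1.92 FPKM) did not differ beyond their spread (SD, n = 3 each). The FPKM ranges of FDFT1 (47.8 to 113), LBR (55.8 to 105), SQLE (42.1 to 105) and CYP51A1 (41.4 to 91.8) overlapped in PATU-8988T, as did those of TM7SF2 (4.40 to 8.24) and LSS (3.66 to 8.38). The 6 genes together made up 0.0856% to 0.0866% of the summed FPKM in PATU-8902 at 6 h, 0.136% to 0.140% at 24 h, and 0.0588% to 0.0602% in DMSO. In PATU-8988T the share was 0.0797% to 0.0868% at 6 h, 0.0743% to 0.0828% at 24 h, and 0.0625% to 0.0750% in DMSO. The 24 h share in PATU-8902 was above every other library of either line. Within PATU-8988T the 6 h shares were above those of all 3 DMSO libraries, and the 24 h and DMSO shares overlapped. That overlap rested on DMSO replicate 1 (0.0750%), with replicates 2 and 3 at 0.0641% and 0.0625%.

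After removing each line's mean, the centred levels of FDFT1, SQLE, LSS, CYP51A1 and TM7SF2 were correlated with each other over the 18 libraries with Pearson's r between 0.71 and 0.97, the highest for SQLE with CYP51A1. LBR had r between -0.27 and 0.11 with the other 5. These values are descriptions over libraries that share their groups, and the group differences above enter into them. Among all tested genes, the 3 most alike to FDFT1 were ACAT2 (r = 0.97), DHCR7 (0.96) and MVK (0.96). For SQLE they were CYP51A1 (0.97), TMEM97 (0.96) and HSD17B7 (0.96), and for CYP51A1 they were SQLE (0.97), HSD17B7 (0.96) and IDI1 (0.94). For LSS they were DHCR7 (0.96), SREBF2 (0.95) and ACSS2 (0.94). TM7SF2 was closest to IDH1 (0.85), ELOVL6 (0.85) and C14orf1 (0.83). LBR was closest to NDUFB5 (0.92), CMTM6 (0.91) and AZIN1 (0.91), none of which was among the nearest of the other 5 genes.

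Enzymes before and after the 6 genes were counted in PATU-8902 in the same way. Over all genes, 0.418% passed as higher at 24 h on the centred scale and 0.105% on the deposited scale. Of 8 genes from acetyl-CoA to farnesyl and geranylgeranyl diphosphate, 5 passed as higher at 24 h on the centred scale with 0 lower (median of the list 0.93, against -0.023 over all genes), and 2 passed on the deposited scale. HMGCS1, which makes hydroxymethylglutaryl-CoA, rose by 1.69 ± 0.07 (adjusted p = 4.39e-10), and IDI1, which isomerises isopentenyl diphosphate, by 1.40 ± 0.09 (adjusted p = 1.04e-07). FDPS, which makes the farnesyl diphosphate that FDFT1 uses, was at 0.63 ± 0.14 (adjusted p = 0.0742), and GGPS1, which draws the same substrate away from sterols, was at 0.032 ± 0.09 (adjusted p = 0.930). Of 8 enzymes after the C14 step, 7 passed as higher (median 1.11) and 3 on the deposited scale. MSMO1, which acts on the C4 methyl groups, rose by 1.56 ± 0.15, HSD17B7, a ketone reductase of the same stage, by 1.69 ± 0.12, and DHCR7, which makes cholesterol from its last precursor, by 1.33 ± 0.13, while EBP, the sterol isomerase, was at 0.52 ± 0.13 (adjusted p = 0.205). The median of the 6 genes was 1.10 on the same scale.

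**Figure D5:**
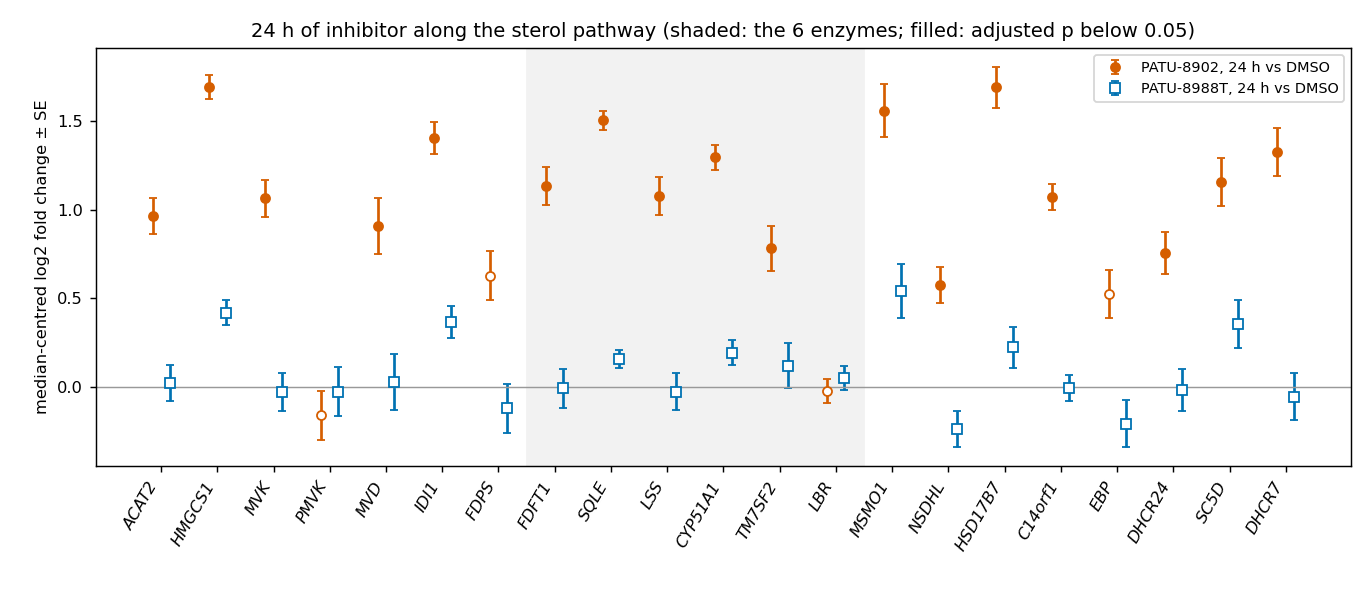
Centred log2 fold change ± SE after 24 h of inhibitor for enzymes of sterol synthesis in pathway order, in PATU-8902 (circles) and PATU-8988T (squares), with the 6 genes shaded and filled symbols for an adjusted p below 0.05. Filled circles run along most of the pathway in PATU-8902, no square is filled, and LBR lies at -0.023 among shaded neighbours between 0.78 and 1.50.

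A list of 7 genes for SREBP control held SREBF1 and SREBF2 themselves. Of these 7, 2 passed as higher in PATU-8902 at 24 h on the centred scale, where 0.418% of all genes did. They were INSIG1, which retains SREBP-2 in the endoplasmic reticulum, by 1.46 ± 0.09, and SREBF2 by 0.83 ± 0.11. SCAP, MBTPS1, MBTPS2, INSIG2 and SREBF1 lay between -0.12 and 0.12 and did not pass. Of 6 genes whose proteins act with or on SQLE and CYP51A1, 0 passed on either scale. The electron donor POR was at 0.18 ± 0.11, PGRMC1 at 0.081 ± 0.08, and MARCH6, the ubiquitin ligase that degrades SQLE, at 0.038 ± 0.07. Of 7 partners of LBR at the nuclear envelope and in heterochromatin, 0 passed on either scale, with LMNB1 at -0.13 ± 0.09 and CBX5 at 0.0049 ± 0.06. At 6 h in PATU-8902 the centred calls were 2 of 8 before the 6 genes and 2 of 8 after them. They were 1 of 7 for SREBP control (INSIG1, 1.73 ± 0.09) and 0 in both partner lists, where 0.113% of all genes passed. At 6 h in PATU-8988T they were 2 of 8 (HMGCS1 and IDI1), 0 of 8 and 1 of 7 (INSIG1, 0.90 ± 0.09), where 0.0784% of all genes passed. At 24 h in that line they were 0 in each list, where 0 of 11477 genes passed. These counts were made with all libraries kept. Without PATU-8988T DMSO replicate 1, 42.6% of all genes passed at 6 h and 40.8% at 24 h, and the lists were not counted there.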

How the data were processed

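Per the submitters' processing notes, reads were processed with HISAT, Cufflinks and Cuffnorm on hg19, with versions and annotation not given in the sources used here. As the unit, the authors deposited FPKM values for 26341 rows, of which 92 were spike-in controls, in 18 libraries. Per the labels' protocols, ERCC spike-ins went into RNA amounts set by cell number. No value was 0, and low values share a floor between 0.0795 and 0.118 FPKM. Low FPKM values show no steps of whole reads, so the sequencing depth cannot be read from them and no counting error is stated.

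From these values log2(FPKM + 1) was computed for the 11477 genes whose mean reached 1 FPKM. A limma model with a mean-variance trend (limma 3.58.1, R 4.3.3) was fitted to the 6 group means (12 residual degrees of freedom). It gave 9 contrasts with 2-sided p-values, Benjamini-Hochberg adjusted over all kept genes, with a threshold of 0.05. Adding 1 understates changes of low genes. The same fit was made after median-centring, printed beside the deposited scale throughout. Alternatives were a pseudocount of 0.1, a filter of 5 FPKM, no filter, rescaling on 47 spike-ins, the replicate number as a block, the compared groups alone, and leaving out each library. The model was run on simulated data with noise smaller than that observed and with no shifts between libraries. That check does not cover the shifts between libraries seen here. The 6 genes are named in every comparison, members of 5 lists with their list, and the 3 genes most correlated with each. A gene of the list before FDFT1 is not reported here. The genes, lists and tests were chosen with earlier results of these data known. Promoters and motifs came from RefSeq (GRCh38.p14) and only describe sequence. P-values measure the spread between the libraries of a group.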

Additional observations from a re-analysis of the deposited data

Results flagged for a closer look

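The 24 h change differed between the lines for 4 genes by a test of the difference itself (limma on the centred scale, change in PATU-8902 minus change in PATU-8988T, 3 libraries a group). FDFT1 differed by 1.14 (adjusted p = 0.00162), with changes of 1.13 in PATU-8902 and -0.0087 in PATU-8988T. SQLE differed by 1.35 (adjusted p = 9.28e-08), with changes of 1.50 in PATU-8902 and 0.16 in PATU-8988T. LSS differed by 1.10 (adjusted p = 0.00162), with changes of 1.08 in PATU-8902 and -0.027 in PATU-8988T. CYP51A1 differed by 1.10 (adjusted p = 4.11e-05), with changes of 1.29 in PATU-8902 and 0.19 in PATU-8988T. On the deposited scale the differences were 1.55 for FDFT1, 1.76 for SQLE, 1.51 for LSS and 1.51 for CYP51A1, and none of them passed (adjusted p between 0.457 and 0.547). The PATU-8988T DMSO libraries, which enter each of these values, differed in median from 6.12 to 12.1 FPKM.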

How the results depend on the processing

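The table gives no depth, 3 libraries a group limit every error, and the deposited scale carries the spread of library medians into each fold change. Centring replaced the deposited counts of passing members as follows: 6 in place of 2 between the lines in DMSO, 4 in place of 0 for the 24 h difference between lines, 5 in place of 0 for PATU-8902 24 h against 6 h, 5 in place of 2 for PATU-8902 24 h against DMSO, 2 in place of 0 for PATU-8902 6 h, and 1 in place of 0 for PATU-8988T 6 h. It turned the sign of SQLE (-0.41) between the lines, of LBR in the 24 h difference (-0.072), in PATU-8902 24 h against 6 h (-0.0048) and against DMSO (-0.023), of TM7SF2 in PATU-8902 at 6 h (0.034), of LSS (0.22) and TM7SF2 (0.13) in PATU-8988T 24 h against 6 h, and of SQLE (0.16), CYP51A1 (0.19), TM7SF2 (0.12) and LBR (0.050) in PATU-8988T 24 h against DMSO. None of these values passed on both scales.

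Centring without a filter aligns libraries on the median of all rows, which lay between 0.165 and 0.294 FPKM, near the floor. The members passing were then 2 between the lines, 0 for the 24 h difference, 0 for PATU-8902 24 h against 6 h, 2 for PATU-8902 24 h against DMSO, and 0 for both 6 h comparisons with DMSO. In these fits 7961 of 26249 genes passed between the lines, 3 for the 24 h difference and 2 for PATU-8902 24 h against 6 h. For PATU-8902 against DMSO, 27 passed at 24 h and 5 at 6 h. Signs turned for SQLE between the lines (0.071), LBR in the 24 h difference (0.31), in PATU-8902 24 h against 6 h (0.14) and against DMSO (0.055), TM7SF2 in the 6 h difference (-0.016) and PATU-8902 6 h (-0.037), LSS (-0.066) and TM7SF2 (-0.16) in PATU-8988T 24 h against 6 h, and SQLE (-0.14), CYP51A1 (-0.11), TM7SF2 (-0.18) and LBR (-0.25) in PATU-8988T 24 h against DMSO. A filter of 5 FPKM left TM7SF2 untested, since its mean lay below 5 FPKM. With centring and this filter, 1 member passed for the 6 h difference, where 1 of 8274 genes passed. LBR in PATU-8902 24 h against 6 h was 0.0054, with FDFT1 at 0.034 and LSS at 0.015 in PATU-8988T 24 h against DMSO. With this filter alone, and so without TM7SF2, 1 member passed between the lines, where 4216 of 8274 genes passed. With centring and a pseudocount of 0.1, 1 member passed for the 6 h difference, where 2 of 11477 genes passed. TM7SF2 was -0.0016 in that difference and -0.0079 in PATU-8902 at 6 h, and FDFT1 was 0.022 in PATU-8988T 24 h against DMSO. With a pseudocount of 0.1 alone TM7SF2 was -0.037 in the 6 h difference. With the compared groups alone, 0 members passed for PATU-8902 24 h against DMSO as deposited, and, centred, 3 for PATU-8902 24 h against 6 h and 0 for PATU-8988T 6 h. Over all 11477 genes, the PATU-8902 fits called 3 for 24 h against DMSO and 17 for 24 h against 6 h. Rescaling on the spike-ins was run on the deposited scale alone. The cause of these changes was not tested.

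Correlations of the deviations of same-numbered libraries ran from -0.22 to 0.091 (median -0.048) in PATU-8902 and from -0.077 to 0.14 (median 0.057) in PATU-8988T. For libraries with different numbers they ran from -0.19 to 0.21 (median 0.014) and from -0.18 to 0.16 (median -0.024). Such correlations do not see a shift shared by all genes of a library, so they do not settle whether same-numbered libraries pair. With the replicate number as a block, centred, 3 members passed for PATU-8902 24 h against 6 h, where 17 of 11477 genes passed. For PATU-8988T 6 h against DMSO 0 members passed with this block. The block was not fitted between the lines, in which it is nested.

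Leaving out 1 library gave 2 to 4 members between the lines (deposited), 0 to 3 for the 24 h difference (deposited) and the 6 h difference (centred), 3 to 5 for PATU-8902 24 h against 6 h (centred), 0 for PATU-8902 24 h against DMSO (deposited), 0 to 2 (deposited) and 0 to 1 (centred) for PATU-8988T 24 h, and 0 to 4 for PATU-8988T 6 h (centred). Over all 11477 genes these fits called 5304 to 6760 between the lines (deposited). In PATU-8902 they called 17 to 23 for 24 h against 6 h (centred) and 6 to 11 for 24 h against DMSO (deposited). Without PATU-8988T DMSO replicate 1 the calls over all 11477 genes were 6514 in place of 0 (24 h, deposited), 4680 in place of 0 (24 h, centred) and 4884 in place of 9 (6 h, centred) in that line, and 2308 in place of 0 for the centred 6 h difference and 636 in place of 26 for the centred 24 h difference. Deposited values that changed sign ran from -0.20 to 0.30 for SQLE between the lines and from -0.28 to 0.24 for TM7SF2 in the 6 h difference. LBR ran from -0.10 to 0.26 in PATU-8902 24 h against 6 h, from -0.17 to 0.16 at 24 h and from -0.22 to 0.062 at 6 h against DMSO, and TM7SF2 from -0.30 to 0.22 at 6 h. In PATU-8988T LSS ran from -0.27 to 0.13 in 24 h against 6 h, SQLE from -0.48 to 0.017 at 24 h, and FDFT1 from -0.34 to 0.27, TM7SF2 from -0.23 to 0.15 and LBR from -0.053 to 0.29 at 6 h. Centred values that changed sign ran from -0.075 to 0.15 for TM7SF2 in the 6 h difference and from -0.080 to 0.14 in PATU-8902 at 6 h, and for LBR from -0.063 to 0.050 in PATU-8902 24 h against 6 h, from -0.081 to 0.032 at 24 h and from -0.047 to 0.0017 at 6 h. In PATU-8988T FDFT1 ran from -0.091 to 0.0061 in 24 h against 6 h, from -0.12 to 0.053 at 24 h and from -0.065 to 0.11 at 6 h, LSS from -0.097 to 0.044 at 24 h, and TM7SF2 from -0.054 to 0.040 at 6 h.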
